A study of Mus musculus with 10 samples.

Results

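The cytochrome P450 genes were taken as the mouse genes with a symbol of the form Cyp, family number, subfamily letter and gene number, such as Cyp2f2. Where several probe sets were annotated to a gene alone, the one with the highest mean stood for it. The array measured 70 such genes among 18193 genes, with 93 probe sets in all, and 18 of the 70 had 2 or more probe sets. Cyp51, the P450 of cholesterol synthesis, was not included because its symbol has no subfamily letter, and neither were probe sets shared by several P450 genes, such as the one for Cyp2a5 and Cyp2a4.

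The tumors were spontaneous mammary tumors of female FVB/N-Tg(MMTVneu) mice, in which the MMTV promoter drives the neu oncogene in mammary epithelium. Of the 10 tumors, 5 came from mice given lovastatin (Lov), an inhibitor of HMG-CoA reductase, at 10 mg/kg (tumors A19, A48, A50, A55 and AB10), and 5 from mice given the ethanol vehicle (Vhcl; tumors A45, A49, A54, A59 and AB11). Both were injected intraperitoneally 3 times per week for 6 weeks after the first tumor was palpated, and all mice carried the transgene. The treatment label of the Vhcl tumors says vehicle, while their free-text description has them as not treated. RNA of each whole tumor was hybridized to 1 Affymetrix mouse whole-genome array, and values are log2 signals.

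Cytochrome P450 enzymes are heme proteins that insert an oxygen atom into their substrates with electrons passed on by partner proteins. Some families make or break down steroids, bile acids, vitamin D, retinoic acid and fatty acids, whereas others, most abundant in liver, oxidize drugs and other foreign compounds. In liver and in the organs that make steroids they are among the most strongly expressed enzymes, and in most other tissues many are silent.

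The tumors carried the markers of their labelled tissue. Of 10 luminal epithelium markers, 9 were well above the array floor defined in the next paragraph, while 0 of 7 hepatocyte markers and 0 of 7 B cell markers were. Signals of any 2 arrays correlated at r = 0.969 to 0.990 across probe sets. No probe set passed an adjusted p of 0.05 between Lov and Vhcl (limma, 0 of 45037), while 2379 had an unadjusted p under 0.05. Markers of salivary gland, which lies beside the mammary fat pad, differed widely between tumors. Their summed linear signal over 9 measured genes was 181 to 656 in Lov-treated and 306 to 53653 in Vhcl-treated tumors, highest in AB11 and A59. Skeletal muscle markers also differed widely, and 7 of 10 were well above the floor by mean. All 10 were above 5.58 in Lov A55, Vhcl A54 and Vhcl A59. The summed linear signal of these 10 was 234 to 4024 in Lov-treated and 220 to 4928 in Vhcl-treated tumors.

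The mean signal of most P450 genes lay within the background range of the array in these tumors. The background was set from 44 probe sets of olfactory receptor genes, which serve smell and are not used by mammary tissue. The 95th percentile of their means over the 10 tumors, 4.58, is called the floor, and a gene with a mean at least 1 log2 unit above it, 5.58, is called well above the floor. Only 8 of the 70 P450 genes (11.4%) were well above the floor, against 10116 of 18193 genes (55.6%). A further 13 lay between the floor and that level, and 49 lay under the floor. The median of the olfactory receptor means was 3.37, so a mean under the floor does not show that a gene is silent. In 55 of the 70, no single tumor reached 5.58, and the highest value among them was 5.27. The level depends on the probe set used. With all probe sets averaged per gene, 6 genes reached it (Cyp27a1 and Cyp4v3 did not), and further probe sets of Cyp27a1 (mean 2.63), Cyp4v3 (4.28) and Cyp20a1 (5.30 and 3.71) lay below it. Signals of different probe sets are not comparable amounts, so each gene is read against the floor and not against another gene.

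**Figure D1:**
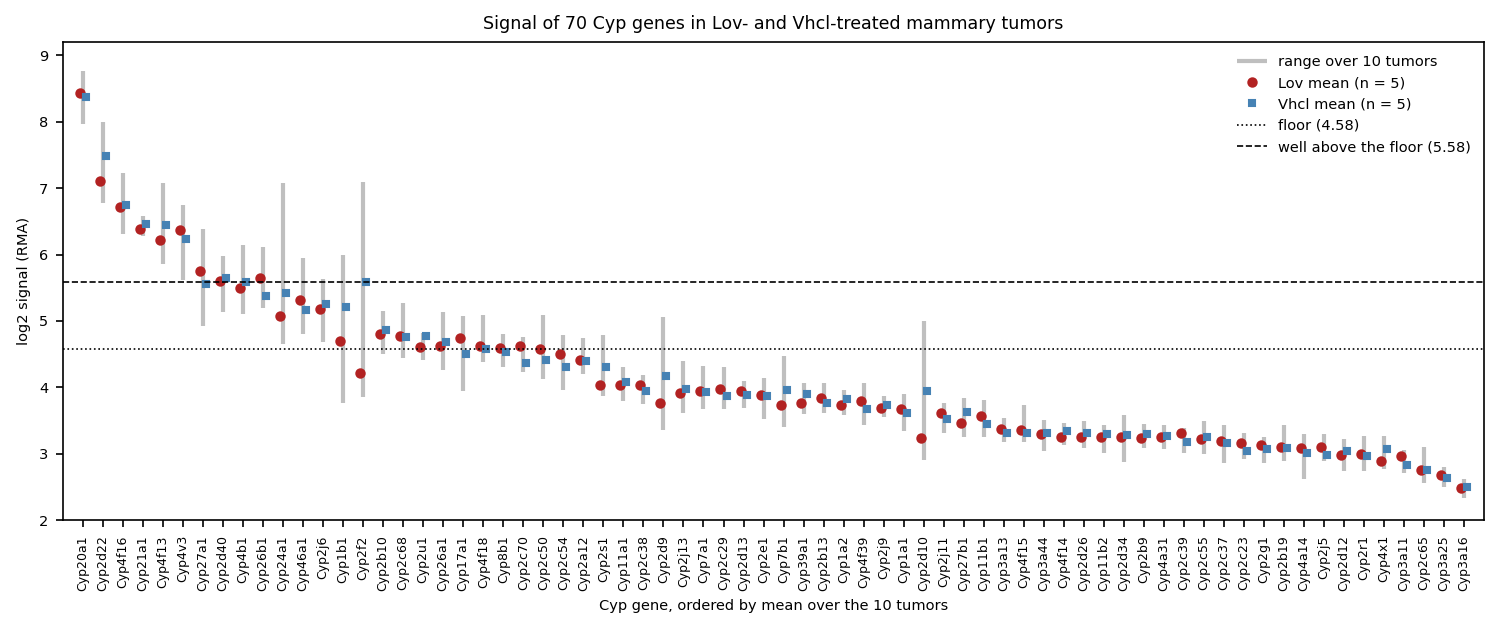
Log2 signal (vertical axis) of each of the 70 Cyp genes (horizontal axis, ordered by mean over the 10 tumors), with the Lov mean as a circle, the Vhcl mean as a square (n = 5 each) and the range over the 10 tumors as a gray line. Only 8 genes have a mean above the dashed line at 5.58, and 49 lie under the dotted floor at 4.58. The long gray lines mark genes that differed widely between tumors, such as Cyp2f2 and Cyp24a1.

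The genes well above the floor came from several roles. They were 2 of 35 genes grouped as acting on foreign compounds (Cyp2d22 and Cyp2d40). Of 17 grouped as acting on fatty acids there were 3 (Cyp4f16, Cyp4f13 and Cyp4v3). The rest were 1 of 5 of steroid hormone synthesis (Cyp21a1), 1 of 6 of bile acid and oxysterol synthesis (Cyp27a1) and Cyp20a1, whose substrate is not known. The 35 include Cyp2c70 and Cyp1b1, which also have other roles, given below. Neither the 3 vitamin D genes nor the 2 retinoic acid genes reached that level by mean. All 11 Cyp2c genes, all 5 Cyp3a genes and both Cyp1a genes, which are drug-metabolizing families of liver, stayed below it in every tumor. Cyp1a1, the classical target of the aryl hydrocarbon receptor, read 3.48 to 3.90 in Lov-treated and 3.35 to 3.83 in Vhcl-treated tumors.

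Between the treatments the measured signals of the family differed little. Of the 70 genes, 62 were not well above the floor and 49 lay under it, where a change may not be detectable. In Lov against Vhcl, 34 differences were negative and 36 positive, 61 of 70 lay within 0.25 log2 units of 0 and 67 within 0.5. The median difference was 0.01 over the 70 genes and 0.00 over all genes. Over the 8 genes well above the floor it was -0.04 (5 negative, 3 positive), and over all genes at that level 0.01. At an unadjusted p under 0.05, 2 of the 70 were lower in Lov-treated tumors (Cyp2f2 and Cyp2d10), a share of 2.86% beside 2.75% of all genes, and 1 was higher (Cyp2c70), a share of 1.43% beside 3.50% of all genes. Past 2-fold with an unadjusted p under 0.02 there was 1 of the 70 (Cyp2f2), a share of 1.43% beside 0.423% of all genes. The share of lower genes is near that of all genes, while each of the other shares rests on 1 gene. The lowest adjusted p of a P450 gene was 0.919 (limma). After adjustment 0 of the 70 were called, and 0% of all genes.

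Among the 8 genes well above the floor, 0 were lower with Lov and 0 were higher by an unadjusted p of 0.05, beside 3.60% and 5.09% of all genes at that level. This count depends on the probe set used. A second probe set of Cyp2d22, also well above the floor (mean 6.73), was lower with an unadjusted p of 0.00707 (adjusted p = 0.919, limma). Groups that did not overlap occurred for 0 of the 70 genes with Lov lower and 1 with Lov higher (Cyp2c70), beside 0.346% and 0.346% of all genes.

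**Figure D2:**
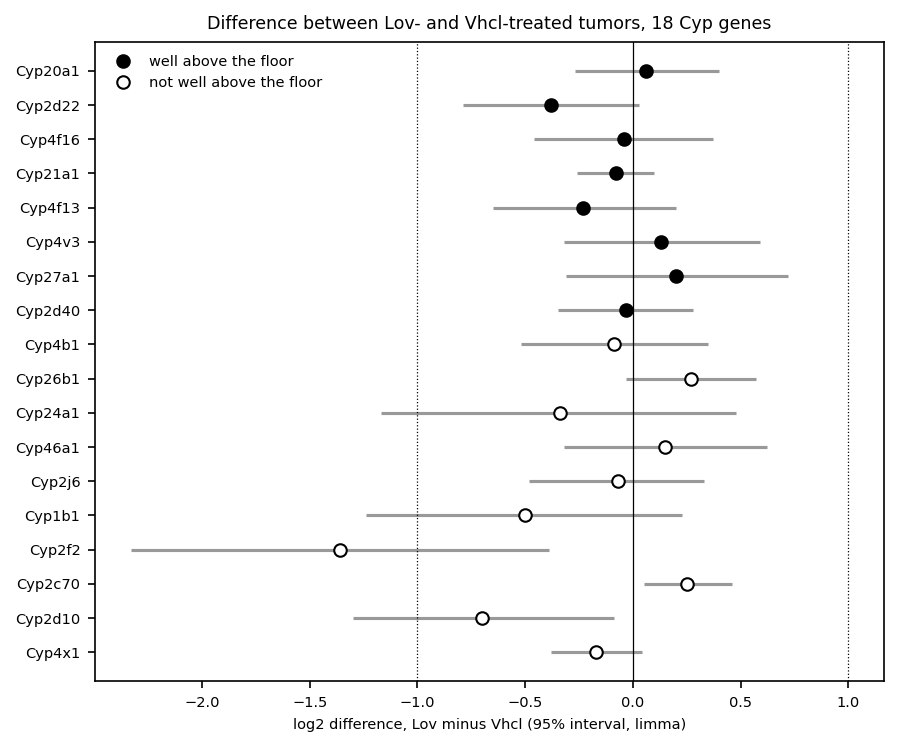
Log2 difference, Lov minus Vhcl (horizontal axis), of 18 Cyp genes, with 95% intervals from limma as gray lines. Filled points are genes well above the floor, open points are not. All 8 filled points lie between -0.38 and 0.20, and their intervals include 0. Dotted lines mark a 2-fold difference.

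Cyp20a1 is an orphan P450. It read 8.76, 8.47, 8.54, 8.32 and 8.07 under Lov (A19, A48, A50, A55, then AB10), against 7.97, 8.35, 8.46, 8.69 and 8.37 under Vhcl (A45, A49, A54, A59, then AB11). The groups overlapped throughout, with a difference of 0.06 (95% interval -0.27 to 0.40, limma).

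Cyp2d22 belongs to a subfamily that oxidizes drugs and other foreign compounds. In the same tumor order, used from here on, its signal was 7.40, 7.08, 6.85, 7.38 and 6.77 in Lov-treated tumors, against 7.39, 8.00, 7.29, 7.06 and 7.64 in Vhcl-treated tumors. The difference was -0.38 (SE 0.19, 95% interval -0.79 to 0.03, unadjusted p = 0.064, adjusted p = 0.956, limma). A second probe set of Cyp2d22, singled out after its values were seen, read 6.40, 6.35, 6.13, 6.74 and 5.99 in Lov-treated tumors, against 6.94, 8.11, 6.61, 7.09 and 6.91 in Vhcl-treated tumors. Only Lov A55 and Vhcl A54 overlapped there.

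By that second probe set Cyp2d22 was 1.75-fold lower in Lov-treated tumors (log2 difference -0.81, SE 0.25, unadjusted p = 0.00707, adjusted p = 0.919, limma; exact two-sided permutation p = 0.0159). Both probe sets correlated at r = 0.84 over the 10 tumors and were highest in Vhcl A49. Without Vhcl A49 the second gave -0.57 (unadjusted p = 0.00453, limma). The first passed an unadjusted p of 0.05 when Lov A19 (-0.46), Lov A55 (-0.45) or Vhcl A59 (-0.48) was left out, and gave -0.25 (unadjusted p = 0.163, limma) without Vhcl A49. With further quantile normalization it gave -0.39 (unadjusted p = 0.0431, limma). Both probe sets averaged gave -0.59 (unadjusted p = 0.0136, limma). Which probe set follows Cyp2d22 more closely was not tested.

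Cyp2d40 is a further member of the subfamily. It read 5.63, 5.13, 5.52, 5.75 and 5.98 in Lov-treated tumors, against 5.54, 5.50, 5.81, 5.64 and 5.69 in Vhcl-treated tumors. These values straddle the 5.58 level in both groups, and the difference was -0.03 (95% interval -0.35 to 0.28, limma).

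Cyp4f16 and Cyp4f13 belong to the Cyp4f subfamily, which hydroxylates fatty acids and leukotrienes. Cyp4f16 read 6.77, 6.71, 6.96, 6.79 and 6.31 in Lov-treated tumors, against 6.37, 7.22, 7.10, 6.34 and 6.73 in Vhcl-treated tumors, a difference of -0.04 (95% interval -0.46 to 0.37, limma). Cyp4f13 read 5.94, 6.48, 6.40, 6.41 and 5.86 in Lov-treated tumors, against 6.36, 7.08, 6.50, 6.10 and 6.18 in Vhcl-treated tumors, a difference of -0.23 (95% interval -0.65 to 0.20, limma). Both were highest in Vhcl A49 and overlapped between the groups, and without that tumor the Cyp4f13 difference was -0.07 (unadjusted p = 0.678, limma). It was -0.14 without Lov AB10. The other 4 of the 6 Cyp4f genes stayed below 5.58 in every tumor.

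Cyp4v3, another fatty acid hydroxylase, read 6.19, 6.75, 6.36, 6.41 and 6.12 in Lov-treated tumors, against 5.84, 6.54, 6.54, 5.62 and 6.62 in Vhcl-treated tumors. The Lov values fell within the range of the Vhcl values except in A48, and the difference was 0.13 (95% interval -0.32 to 0.59, limma).

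Cyp21a1 encodes the steroid hydroxylase of the adrenal cortex. It read 6.33, 6.43, 6.28, 6.35 and 6.50 in Lov-treated tumors, against 6.41, 6.58, 6.50, 6.40 and 6.39 in Vhcl-treated tumors. Its range over all tumors was 0.30, the narrowest of the 8 genes, and the difference was -0.08 (95% interval -0.26 to 0.10, limma). The second probe set of Cyp21a1 averaged under 5.58, and Cyp11a1 and Cyp17a1, also of steroid hormone synthesis, were under 5.58 in every tumor.

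Cyp27a1, the mitochondrial sterol hydroxylase of bile acid and oxysterol synthesis, read 5.83, 6.39, 5.91, 5.70 and 4.93 in Lov-treated tumors, against 5.69, 5.32, 5.99, 5.29 and 5.46 in Vhcl-treated tumors. It exceeded 5.58 in 4 Lov-treated and 2 Vhcl-treated tumors. The difference was 0.20 (95% interval -0.31 to 0.72, limma), and leaving out 1 tumor gave 0.04 (unadjusted p = 0.848, limma; without Lov A48, the highest value) to 0.41 (unadjusted p = 0.0449, limma; without Lov AB10, the lowest). Without Lov A48 its mean was also under the 5.58 level.

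**Figure D3:**
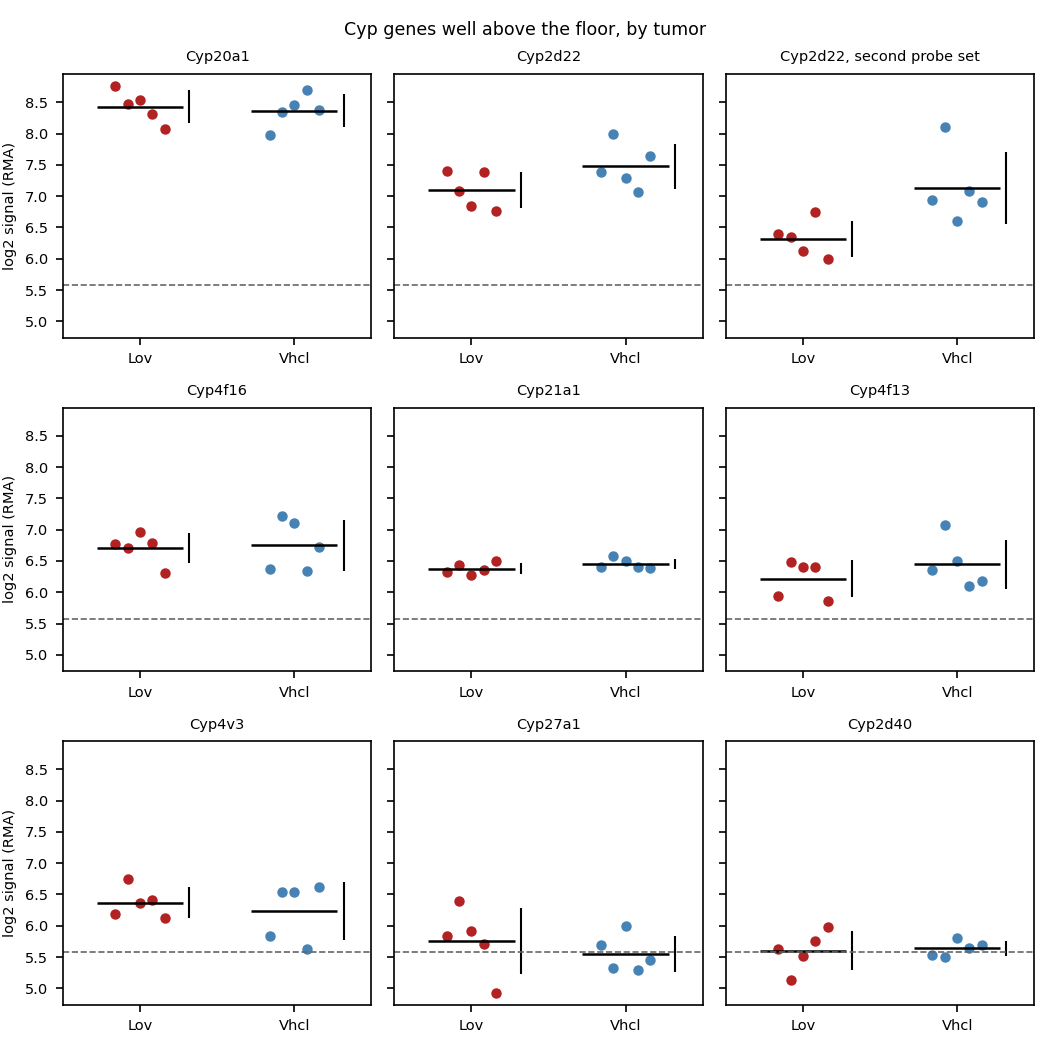
Log2 signal in each tumor (points) of the 8 Cyp genes well above the floor and of the second probe set of Cyp2d22, Lov at the left and Vhcl at the right of each panel (n = 5 each). Horizontal bars are means, vertical bars 1 SD, and the dashed line is 5.58. The groups overlap in every panel, least in the second probe set of Cyp2d22, where Lov spans 5.99 to 6.74 and Vhcl 6.61 to 8.11.

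Vhcl A49 had the highest signal for 4 of the 8 genes well above the floor (Cyp2d22, Cyp4f16, Cyp21a1 and Cyp4f13), while no other tumor was highest for more than 2. Over all 70 genes, most of them under the floor, Lov AB10 was highest most often (16 genes), followed by Vhcl A49 (12). Over the 8 genes and 8 marker lists of cell types and tissues, 64 correlations across the 10 tumors were computed. None passed after adjustment (lowest adjusted permutation p = 0.982 for Pearson's r and 0.86 for Spearman's rho).

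Just below the level stood Cyp4b1, with a mean of 5.54, and Cyp26b1, with 5.51, just as Cyp2d40 stood just inside it with 5.62. A total of 7 genes were above 5.58 in at least 1 tumor without reaching it by mean. They were Cyp4b1, Cyp26b1, Cyp24a1, Cyp46a1, Cyp2j6, Cyp1b1 and Cyp2f2.

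Cyp2f2, the P450 by which airway club cells of the mouse oxidize naphthalene, had the lowest p of the family. It read 4.78, 3.85, 4.05, 4.15 and 4.25 in Lov-treated tumors, against 5.99, 4.72, 4.24, 5.84 and 7.09 in Vhcl-treated tumors. All Lov values were below 5.58, 3 of the Vhcl values were above it, and Vhcl A49 and A54 lay within the Lov range.

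The mean of Cyp2f2 was 2.57-fold lower in Lov-treated tumors (log2 difference -1.36, SE 0.44, unadjusted p = 0.00997, adjusted p = 0.919, limma; exact two-sided permutation p = 0.0397). The study's tables list this gene from the same arrays, so the call is not independent evidence. Leaving out 1 tumor gave -0.98 (without Vhcl AB11) to -1.69 (without Vhcl A54), each with an unadjusted p under 0.05. The joint call of 2-fold and p under 0.02 was lost without Lov A48 (-1.27), Lov A50 (-1.32), Lov A55 (-1.34), Vhcl A45 (-1.26), Vhcl A59 (-1.29) or Vhcl AB11.

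Most salivary gland markers were high in Vhcl AB11 and A59, where Cyp2f2 was high, but not in A45, where Cyp2f2 was high too. Above 5.58 stood 8 of the 9 measured markers in AB11 and 7 in A59, against 4 in A45 and 4 in Lov A19. All 9 were lower on average in Lov-treated tumors, and 3 were well above the floor by mean. At an unadjusted p under 0.05, 4 of the 9 were lower, beside 2.75% of all genes (adjusted p of 0.919 to 0.932, limma). Amy1, Smr3a and Pip exceeded 5.58 only in Vhcl A59 or AB11. The mean log2 signal over the 9 markers was 10.80 in Vhcl AB11, 7.19 in A59 and 5.73 in A45, the tumors with the most Cyp2f2. It was 5.69 at most in a Lov-treated tumor, A19, which had the most Cyp2f2 of its group. For Dcpp1, a secreted protein of salivary glands, the signal was 6.38 in Lov A19 and at most 4.58 in the other Lov-treated tumors, against 8.04, 6.27, 4.65, 10.54 and 10.68 in Vhcl-treated tumors. Not every marker followed Cyp2f2. Smr2 was lowest in Vhcl AB11 (4.30) and highest in Vhcl A54 (5.45), and Prol1 was highest in Vhcl A49 (9.51), where Cyp2f2 lay within the Lov range.

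Without Vhcl A59 and AB11, left out after these values were seen, the Cyp2f2 difference was -0.77 (SE 0.35, unadjusted p = 0.0531, limma). The defining club cell markers Scgb1a1 and Scgb3a2 averaged 3.02 and 3.41, under the floor. Of the 6 club cell markers, 2 were well above it (Sftpb and Sftpd), and the summed linear signal of the list was 189 to 384 in Lov-treated and 192 to 3094 in Vhcl-treated tumors. This sum did not follow Cyp2f2. Sftpd read 8.11, 10.49, 7.63, 11.54 and 6.07 in Vhcl-treated tumors, lowest in AB11, which had the most Cyp2f2. The part of neighboring tissue in the Cyp2f2 result was not tested beyond these values. In whole tumors, fewer cells of a type and less RNA per cell cannot be told apart.

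The promoter of Cyp2f2 held no CG dinucleotide, the site of DNA methylation in mammals, whereas that of Cyp20a1 held many. The promoter windows below show this contrast within the family, together with that of Cyp2e1, a liver P450 with the TATA box letters tataaa. Each window covers 250 bases before and 50 after the start of the gene in RefSeq (GRCm38.p6), 5′ to 3′ along the gene, with each CG in capitals. Cyp20a1 (chr1:60343050-60343349, plus strand) had 20 CG, Cyp2f2 (chr7:27119705-27120004, plus strand) had 0 and Cyp2e1 (chr7:140763569-140763868, plus strand) had 4.
Cyp20a1: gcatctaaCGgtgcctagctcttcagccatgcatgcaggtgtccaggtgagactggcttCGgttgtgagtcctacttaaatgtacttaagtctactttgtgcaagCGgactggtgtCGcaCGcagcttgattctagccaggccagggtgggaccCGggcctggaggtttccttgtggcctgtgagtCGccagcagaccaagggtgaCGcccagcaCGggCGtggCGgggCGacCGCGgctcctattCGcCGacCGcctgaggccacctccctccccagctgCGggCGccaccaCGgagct
Cyp2f2: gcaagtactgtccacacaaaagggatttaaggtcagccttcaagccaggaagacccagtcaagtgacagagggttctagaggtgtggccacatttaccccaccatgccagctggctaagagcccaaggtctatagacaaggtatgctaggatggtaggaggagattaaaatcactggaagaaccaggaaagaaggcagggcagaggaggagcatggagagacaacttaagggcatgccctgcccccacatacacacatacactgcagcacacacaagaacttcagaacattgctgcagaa
Cyp2e1: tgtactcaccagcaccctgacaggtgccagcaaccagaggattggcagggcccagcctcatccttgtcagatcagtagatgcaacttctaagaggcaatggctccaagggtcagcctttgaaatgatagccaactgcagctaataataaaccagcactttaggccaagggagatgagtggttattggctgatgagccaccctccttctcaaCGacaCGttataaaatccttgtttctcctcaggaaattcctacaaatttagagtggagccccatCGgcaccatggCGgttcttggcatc

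Such a window was given for 51 of the 70 genes. The median was 8 CG (range 1 to 20) in the 6 genes well above the floor and 3 (range 0 to 31) in the 45 that were not. Beside these stood 22 in all genes well above the floor and 8 in all genes that were not. The highest count of the family, 31, was that of Cyp46a1, which was not well above the floor. At least 10 CG stood in 3 of the 6 and in 6 of the 45 (13.3%), beside 84.9% and 43.6% of all genes. The letters TATAAA, searched on the gene's strand, occurred in 14 of the 51 windows (27.5%) and in 8.88% of all promoters, and in 0 of the 6. The letters GCGTG, the core bound by the aryl hydrocarbon receptor, searched on both strands, occurred in 13 of the 51 (25.5%) and in 32.5% of all promoters. A match is only a match of letters. Cyp2e1 itself, which oxidizes ethanol, read 3.52 to 4.14 in Lov-treated and 3.67 to 4.13 in Vhcl-treated tumors.

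**Figure D4:**
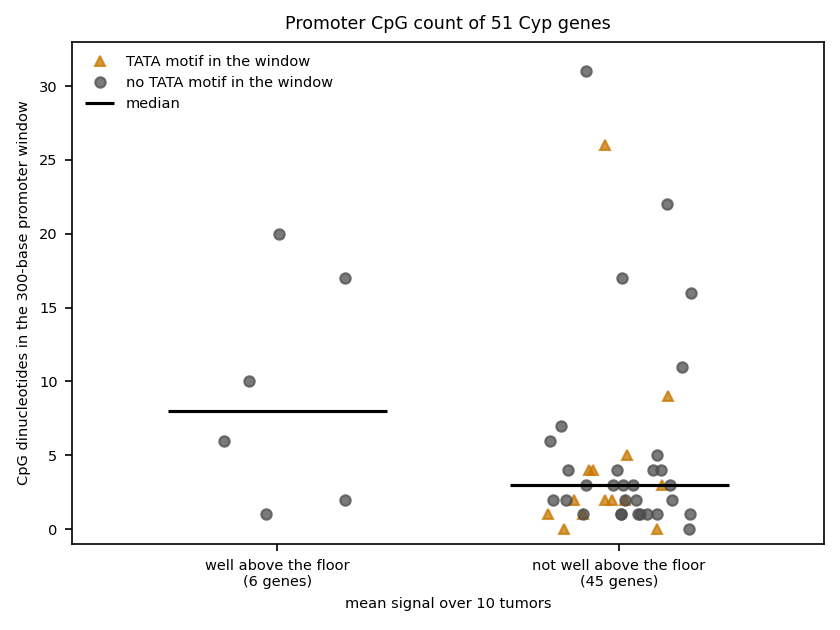
Number of CpG dinucleotides in the promoter window of 300 bases (vertical axis) for the 6 Cyp genes well above the floor and the 45 not well above it, each point a gene and the bar the median (8 and 3). Triangles carry the TATA motif, and none of them is among the 6 genes.

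Cyp2d10 and Cyp2d9 are liver P450s of close sequence, so that one probe set may read both. Cyp2d10 read 3.49, 3.13, 3.39, 3.28 and 2.91 in Lov-treated tumors, against 4.11, 5.00, 3.40, 3.86 and 3.31 in Vhcl-treated tumors. Only Vhcl A49 exceeded the floor of 4.58, and the log2 difference was -0.70 (SE 0.28, unadjusted p = 0.027, adjusted p = 0.932, limma; exact two-sided permutation p = 0.0476). Its unadjusted p was above 0.05 without Lov A48 (-0.67), Lov AB10 (-0.61) or Vhcl A45 (-0.65), and the difference was -0.43 without Vhcl A49.

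Cyp2d9, named after its values were seen, read 4.07, 3.81, 3.59, 3.36 and 4.04 in Lov-treated tumors, against 3.77, 5.06, 3.51, 4.60 and 3.89 in Vhcl-treated tumors. It too was highest in Vhcl A49. Of the 8 Cyp2d genes, 7 had a negative difference, beside 34 of the 70 P450 genes and 1 of the 11 Cyp2c genes. For Cyp2d40, Cyp2d34, Cyp2d26 and Cyp2d12 it was only -0.06 to -0.03, and 6 of the 8 were below 5.58 in every tumor.

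Cyp2c70, a mouse liver enzyme that makes muricholic acids, was the 1 gene without overlap. It read 4.51, 4.60, 4.75, 4.51 and 4.76 in Lov-treated tumors, against 4.35, 4.49, 4.30, 4.49 and 4.24 in Vhcl-treated tumors. All values lay near the floor. The log2 difference was 0.25 (SE 0.09, unadjusted p = 0.0204, adjusted p = 0.928, limma), with an exact two-sided permutation p of 0.00794, the smallest that 5 against 5 tumors allow. Its unadjusted p was above 0.05 without Lov A50 (0.22) or Vhcl AB11 (0.22).

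Cyp24a1, which inactivates vitamin D, was high in 1 tumor. It read 5.45, 5.08, 4.99, 4.66 and 5.18 in Lov-treated tumors, against 4.72, 7.07, 4.86, 5.09 and 5.34 in Vhcl-treated tumors. Vhcl A49 stood apart by both probe sets, with 7.48 by the second, for which all other tumors read 2.94 to 4.55. The difference of the first was -0.34 (95% interval -1.17 to 0.48, limma), and 0.07 without Vhcl A49. Cyp27b1, which activates vitamin D, and Cyp2r1, which acts before it, read at most 3.84 in any tumor.

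Cyp1b1, a hydroxylase of estradiol and polycyclic hydrocarbons, read 5.43, 4.84, 3.77, 5.15 and 4.33 in Lov-treated tumors, against 4.93, 5.56, 5.09, 5.99 and 4.47 in Vhcl-treated tumors. The range over the tumors was 2.22, and the groups overlapped, with a difference of -0.50 (95% interval -1.24 to 0.23, unadjusted p = 0.16, limma). Leaving out 1 tumor gave -0.27 (without Lov A50) to -0.69 (without Lov A19 or Vhcl AB11), and -0.31 without Vhcl A59. Without Lov A19 and Vhcl AB11 together it was -0.87 (unadjusted p = 0.0207, limma). Its other probe sets were under the floor in every tumor.

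Cyp26b1 degrades retinoic acid. It read 6.12, 5.48, 5.37, 5.54 and 5.74 in Lov-treated tumors, against 5.38, 5.20, 5.51, 5.42 and 5.37 in Vhcl-treated tumors. Above 5.58 stood 2 Lov-treated and 0 Vhcl-treated tumors. The difference was 0.27 (95% interval -0.03 to 0.57, unadjusted p = 0.0691, limma), and leaving out 1 tumor gave 0.16 (unadjusted p = 0.173, limma; without Lov A19, the highest value) to 0.34 (unadjusted p = 0.0307, limma; without Lov A50).

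The remaining named genes were 3 between the floor and the 5.58 level by mean and 1 under the floor. Cyp4b1, a lung enzyme, spanned 5.10 to 5.90 in Lov-treated and 5.24 to 6.14 in Vhcl-treated tumors (difference -0.09). Cyp46a1, the cholesterol hydroxylase of brain, spanned 5.01 to 5.95 in Lov-treated and 4.81 to 5.84 in Vhcl-treated tumors (0.15). Cyp2j6, of a subfamily that epoxidizes arachidonic acid, spanned 4.69 to 5.63 in Lov-treated and 4.74 to 5.52 in Vhcl-treated tumors (-0.07). By these probe sets the groups of the 3 genes overlapped almost fully. A second probe set of Cyp2j6, under the floor in every tumor, spanned 3.50 to 3.99 in Lov-treated and 3.89 to 4.10 in Vhcl-treated tumors. Its log2 difference was -0.26 (unadjusted p = 0.0258, adjusted p = 0.932, limma). Cyp4x1 was named for its low p among the genes not well above the floor. It spanned 2.78 to 3.03 in Lov-treated and 2.90 to 3.27 in Vhcl-treated tumors (-0.17, unadjusted p = 0.0945, limma), all under the floor.

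**Figure D5:**
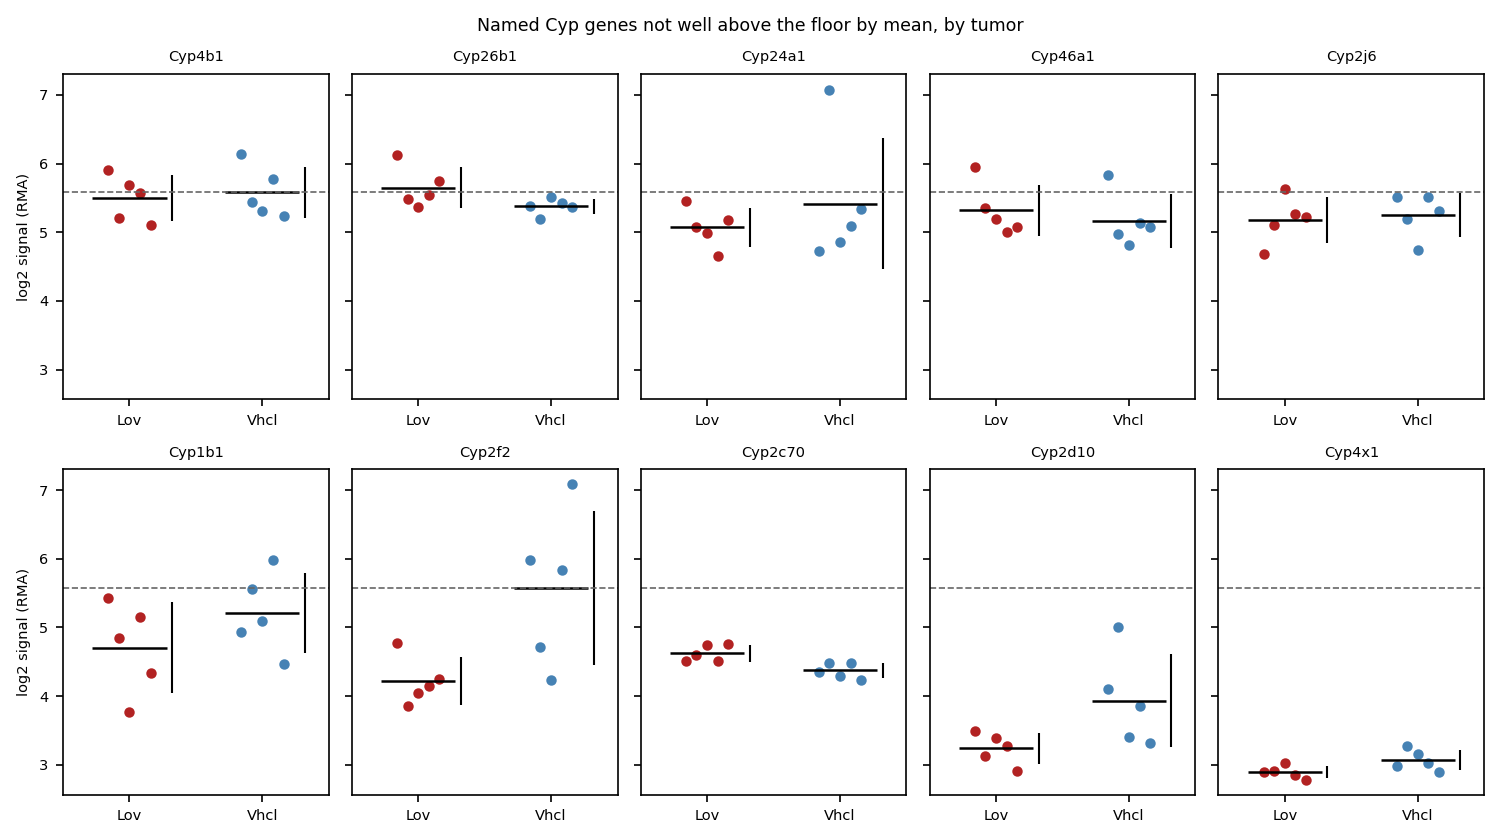
Log2 signal in each tumor (points) of the 10 named Cyp genes not well above the floor, Lov at the left and Vhcl at the right of each panel (n = 5 each). Horizontal bars are means, vertical bars 1 SD, and the dashed line is 5.58. Cyp24a1 has a single high tumor at 7.07, and the highest Cyp2f2 value is 4.78 in Lov and 7.09 in Vhcl.

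Of 9 listed redox partners of P450 enzymes, 7 were measured by a probe set of their own. Por and Fdxr, the reductases of microsomal and mitochondrial P450s, were not among them. All 7 were well above the floor, and 1 of the 7 was lower at an unadjusted p under 0.05, a threshold passed by 2.75% of all genes downward and 3.50% upward. This was Pgrmc2, a membrane heme-binding protein, at 8.52, 8.52, 8.67, 8.32 and 7.99 in Lov-treated tumors, against 9.08, 9.31, 8.55, 8.78 and 8.53 in Vhcl-treated tumors (log2 difference -0.45, unadjusted p = 0.0256, adjusted p = 0.932, limma). All 8 measured genes of heme synthesis were well above the floor, with 0 lower and 0 higher. Cyp51 and the other P450s with their own symbols, Ptgis and Tbxas1, gave 0 of 3 in either direction.

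The measured signals of the regulators of P450 genes differed little as well. Of 6 measured genes of the aryl hydrocarbon receptor pathway, 4 were well above the floor and 0 passed in either direction, with Ahr, the receptor, at a mean of 8.24 in Lov-treated and 8.22 in Vhcl-treated tumors. Of 17 nuclear receptors, only 7 were well above the floor. At that threshold 1 of the 17 was lower and 0 were higher (2.75% and 3.50% of all genes). The xenobiotic receptors Nr1i2 and Nr1i3 averaged 3.64 and 3.48, under the floor. The lower one was Rara, a retinoic acid receptor, at 5.34, 5.24, 5.32, 5.46 and 5.32 in Lov-treated tumors, against 5.43, 5.79, 5.65, 5.96 and 5.78 in Vhcl-treated tumors (log2 difference -0.39, unadjusted p = 0.00349, adjusted p = 0.919, limma).

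Enzymes that act beside P450s gave a few differences before adjustment. Of 11 eicosanoid and epoxide enzymes, 1 was lower and 0 higher, beside the same 2.75% and 3.50% of all genes. It was Ephx1, the microsomal epoxide hydrolase, at 9.36, 9.16, 9.00, 8.88 and 8.58 in Lov-treated tumors, against 9.95, 9.36, 9.52, 9.68 and 9.17 in Vhcl-treated tumors (log2 difference -0.54, unadjusted p = 0.00851, adjusted p = 0.919, limma). The groups of Ephx1 overlapped between Lov A19 and Vhcl A49 and AB11.

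Of 14 conjugating enzymes, 2 were lower (Gsta4 and Gstm2) and 2 were higher (Sult2b1 and Sult1a1) with an unadjusted p under 0.05, again beside 2.75% and 3.50% of all genes. With lists this short, 1 or 2 genes make up the whole count. Of the 14, 8 were well above the floor, but Gstm2 (mean 5.30) and Sult1a1 (mean 4.55, under the floor) were not. Sult2b1, a sterol sulfotransferase, read 5.57, 5.99, 6.70, 6.57 and 6.15 in Lov-treated tumors, against 4.78, 5.05, 5.29, 5.46 and 6.06 in Vhcl-treated tumors (log2 difference 0.87, unadjusted p = 0.00564, adjusted p = 0.919, limma). The glutathione transferase Gsta4 read 7.66, 7.33, 7.67, 7.20 and 6.88 in Lov-treated tumors, against 9.34, 8.50, 7.36, 8.73 and 7.68 in Vhcl-treated tumors (-0.97, unadjusted p = 0.0125, adjusted p = 0.919, limma). Gstm2, of the same enzyme class, averaged 4.33 ± 0.49 in Lov-treated and 6.27 ± 1.83 in Vhcl-treated tumors (SD, n = 5 each; log2 difference -1.94, unadjusted p = 0.018, adjusted p = 0.928, limma). In Vhcl A54 (4.37) and AB11 (4.50) Gstm2 lay within the range of the Lov-treated tumors, 3.93 to 5.14. The median difference over the 14 was -0.06, against 0.00 over all genes.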

How the data were processed

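RNA of 10 mammary tumors, 5 Lov and 5 Vhcl, was measured on 1 array each. The authors deposited log2 signals made by Robust Multi-array Analysis (RMA) with the affy package, per the labels' processing notes, with versions not given in the sources used here. RMA scales the arrays to 1 distribution, so a change shared by most genes would be lost. Arrays have no sequencing depth, and their number limits the precision.

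Lov was compared with Vhcl in limma 3.58.1 (R 4.3.3, prior degrees of freedom 3.61), two-sided, with Benjamini-Hochberg adjustment over 45037 probe sets. The 64 array controls were left out. Standard errors and 95% intervals are the moderated ones. Exact permutation tests enumerated 252 assignments of tumors. The labels give no mouse for each tumor, so p-values measure the spread between these tumors. Calculations were tested on simulated data.

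Gene symbols came from the array's annotation (34945 probe sets with 1 symbol, 932 with several, 9160 with none). The symbols of all 70 P450 genes were current. The named genes were those well above the floor, the 5 of lowest p among the rest, those past 2-fold with p under 0.02 and those above 5.58 in at least 1 tumor. The members, gene lists, roles and rules were chosen with earlier results of these data known. Marker lists came from general knowledge of 13 cell types or tissues, and the text gives those that touch a result. Alternatives covered the prior, moderation, scaling, weights, covariates, choice of probe set, floor, and tumors left out. Leaving out Vhcl A59 and AB11 together was chosen after seeing the data.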

Additional observations from a re-analysis of the deposited data

Results flagged for a closer look

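Cyp24a1 read 7.07 in Vhcl A49, while the nearest of the other Vhcl-treated tumors read 5.34 and the lowest 4.72. The gap was 0.736 of the range of the group, above Dixon's critical value for 5 tumors. It was 1 of 36 groups of 5 examined, and chance sets apart about 1 in 20 groups. The second probe set of Cyp24a1 was also highest in this tumor, at 7.48.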

How the results depend on the processing

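Of 378 values of 18 named genes under 21 alternatives, 339 kept their direction and their side of an unadjusted p of 0.05. A further 12 passed it where the main value had not, 8 no longer did, and 19 changed sign, each of those with p above 0.05 both times. The lowest adjusted p of any P450 gene was 0.407. The main counts were 2 lower, 1 higher, 1 past 2-fold and 8 well above the floor. With a covariate for RNA quality, the beta-actin 3' minus 5' difference, they were 4 lower, 2 higher and 0 past 2-fold, and with no moderation 1, 3 and 0. Without Vhcl A59 and AB11, 0 were higher and 0 past 2-fold. The floor without a margin gave 21 genes, the median of all probe sets plus 2 gave 2, and the 99th percentile of olfactory receptors plus 1 gave 6. Probe sets averaged per gene gave 6, those not marked as shared gave 7 (Cyp4v3 lost), and leaving out 1 tumor gave 7 to 9. Leaving out 1 tumor gave 1 to 4 lower (4 without Lov A55, 1 without Lov A48, Lov AB10 or Vhcl A45), 0 to 2 higher (2 without Lov AB10 or Vhcl A45, 0 without Vhcl AB11) and 0 to 1 past 2-fold. The causes were not tested.

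Signs changed for small differences. Without Lov A19 and Vhcl AB11, Cyp20a1 was -0.02, Cyp2j6 0.06 and Cyp46a1 -0.03, and without Vhcl A59 and AB11 Cyp2j6 was 0.03. With array weights Cyp4f16 was 0.01, and with the actin covariate Cyp2d40 was 0.06. Leaving out 1 tumor gave -0.04 to 0.15 for Cyp20a1, -0.15 to 0.07 for Cyp4f16, -0.02 to 0.23 for Cyp4v3, -0.13 to 0.08 for Cyp2d40, -0.52 to 0.07 for Cyp24a1, -0.20 to 0.05 for Cyp2j6, -0.00 to 0.32 for Cyp46a1 and -0.19 to 0.05 for Cyp4b1.

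The beta-actin 3' minus 5' signal was 0.67 to 1.07 in Lov-treated and 0.80 to 1.35 in Vhcl-treated tumors. With it as a covariate Cyp2d22 (-0.51), Cyp4f13 (-0.43) and Cyp26b1 (0.40) passed an unadjusted p of 0.05. Signals near the floor compress differences, so a change of a gene under the floor may not be detectable. No paired analysis was possible because the tumor IDs are not shared between the groups.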
